A study of Homo sapiens with 2 samples.

Results

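The interferon response and the antigen presentation pathway that it feeds were described in SW480, a line established from a human colorectal adenocarcinoma, with and without introduced TFAP2E. The genes were chosen by name: 40 genes of interferon signalling, RNA sensing, interferon-induced defence and antigen processing, of which 38 had a probe set annotated to that gene alone. The other two, STAT2 and CD74, had no such probe set in the annotation used here and are not analysed as members. DDX58 was found under its current symbol RIGI. Of the 38, 28 were measured, which means that the higher of their 2 log2 values was not below 5.55, the median over the table, and 10 were dim on both arrays. The whole table held 11548 measured genes out of 18417.

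One group was SW480 cells that stably carried the TFAP2E coding sequence in the pTarget expression vector, and the other was SW480 cells with the empty vector. TFAP2E is a DNA-binding factor of the AP-2 family. Both groups were selected with the drug Geneticin, and both share the tumour line's genome. Each group has 1 array of total RNA. Per the labels' protocols the RNA came from picked clones, and whether an array holds 1 clone or several is not stated, so differences between clones and the effect of TFAP2E cannot be told apart. The values are the authors' log2 RMA values, and a difference is always the array labelled TFAP2E overexpression minus the empty vector array. No gene has a replicate in either group, and therefore no value carries an error or a test.

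Interferons are secreted signals of infection. Type I interferons bind IFNAR1 with IFNAR2, and interferon gamma binds IFNGR1 with IFNGR2. The receptors activate Janus kinases, which phosphorylate STAT proteins. STAT complexes, with IRF9 in the type I response, then bind interferon-stimulated response elements or gamma-activated sites in the promoters of target genes. Many targets restrict viruses, several sense viral RNA and so feed the response again, and others build the machinery that loads peptides on MHC class I molecules for display to T cells. In colorectal tumours this display is one of the ways by which T cells recognise the cancer cells.

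The promoters of 8 members are shown because these genes mark the extremes and the shared element described below. BST2 and ERAP1 had the highest and the lowest difference among the measured members, MX1, RIGI and ISG15 were among the higher ones, B2M and TAPBP stand for the lower antigen processing genes, and IFIT1 is a classical target that was dim. Each stretch runs from 200 bases before to 30 bases after an annotated transcription start, 5′ to 3′ on the gene's strand, from RefSeq (GRCh38.p14). Capitals mark the core letters of the interferon-stimulated response element, GAAANNGAA on either strand, where N is any base. The stretches are BST2 at chr19:17405601-17405830 (minus strand), ISG15 at chr1:1013297-1013526 (plus strand), MX1 at chr21:41420358-41420587 (plus strand), RIGI at chr9:32526167-32526396 (minus strand), IFIT1 at chr10:89392423-89392652 (plus strand), B2M at chr15:44711317-44711546 (plus strand), TAPBP at chr6:33314049-33314278 (minus strand) and ERAP1 at chr5:96807916-96808145 (minus strand). MX1 and ERAP1 have other annotated starts, and the first in the table is printed.
BST2: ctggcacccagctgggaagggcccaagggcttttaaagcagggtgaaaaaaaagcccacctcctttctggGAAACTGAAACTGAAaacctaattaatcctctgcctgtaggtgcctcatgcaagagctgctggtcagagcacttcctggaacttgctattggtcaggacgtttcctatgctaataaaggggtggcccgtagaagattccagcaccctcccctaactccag
ISG15: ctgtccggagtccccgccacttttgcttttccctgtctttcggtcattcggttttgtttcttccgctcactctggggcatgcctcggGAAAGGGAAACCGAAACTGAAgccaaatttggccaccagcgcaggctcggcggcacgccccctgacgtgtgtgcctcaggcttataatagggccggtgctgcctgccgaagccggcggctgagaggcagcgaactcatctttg
MX1: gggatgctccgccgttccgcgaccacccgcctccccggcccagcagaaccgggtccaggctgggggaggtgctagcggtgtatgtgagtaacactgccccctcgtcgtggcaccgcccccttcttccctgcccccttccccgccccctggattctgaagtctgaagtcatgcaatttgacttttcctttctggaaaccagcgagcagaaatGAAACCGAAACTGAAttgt
RIGI: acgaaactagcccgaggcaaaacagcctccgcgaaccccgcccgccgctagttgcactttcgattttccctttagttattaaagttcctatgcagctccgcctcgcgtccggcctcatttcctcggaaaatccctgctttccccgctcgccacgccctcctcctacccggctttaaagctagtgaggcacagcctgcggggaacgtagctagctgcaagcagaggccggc
IFIT1: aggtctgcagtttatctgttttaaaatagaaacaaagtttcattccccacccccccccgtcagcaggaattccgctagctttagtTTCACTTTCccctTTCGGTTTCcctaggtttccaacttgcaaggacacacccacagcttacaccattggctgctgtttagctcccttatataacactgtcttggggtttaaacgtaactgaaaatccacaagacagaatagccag
B2M: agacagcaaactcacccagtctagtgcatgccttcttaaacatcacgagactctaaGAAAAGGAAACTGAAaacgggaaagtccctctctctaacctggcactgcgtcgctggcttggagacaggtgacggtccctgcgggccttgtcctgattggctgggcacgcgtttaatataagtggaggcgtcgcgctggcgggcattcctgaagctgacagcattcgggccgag
TAPBP: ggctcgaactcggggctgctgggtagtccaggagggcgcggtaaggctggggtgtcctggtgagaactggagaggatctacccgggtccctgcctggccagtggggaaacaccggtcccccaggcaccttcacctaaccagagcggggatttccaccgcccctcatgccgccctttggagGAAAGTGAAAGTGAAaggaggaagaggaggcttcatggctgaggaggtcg
ERAP1: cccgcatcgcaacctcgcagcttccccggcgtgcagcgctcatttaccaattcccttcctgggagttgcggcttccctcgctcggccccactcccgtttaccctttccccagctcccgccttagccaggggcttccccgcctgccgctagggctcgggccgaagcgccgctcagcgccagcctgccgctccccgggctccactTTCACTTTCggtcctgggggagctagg

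Several of these elements lie as overlapping repeats. Counted in bases from the start, with negative positions before it, the letters ran from -130 to -116 in BST2, from -113 to -93 in ISG15 and from -144 to -130 in B2M. TAPBP carried them directly before the start, from -20 to -6, while in MX1 (12 to 26) and ERAP1 (4 to 12) they lay just after it. The RIGI stretch held no match to these letters. A match describes the sequence and is not evidence of binding.

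Across the 28 measured members the differences were small and went both ways. None reached 2-fold, against 0.199% of all 11548 measured genes. At 1.5-fold BST2 was the 1 member past the rule, on the higher side, against 1.5% of all measured genes in either direction and 0.892% on the higher side. The members counted 11 higher, 16 lower and 1 equal, with a median log2 difference of -0.08. All measured genes counted 6831 higher and 4558 lower, with a median of 0.04. RIGI and USP18, both higher, reached the filter on the TFAP2E array alone. Of the 26 members at or above it on both arrays, 9 were higher and 16 lower, with a median of -0.09. The 11074 such genes counted 6576 higher and 4339 lower, with a median of 0.04. With the dim members included, 14 of 38 were higher and 22 lower, and the median was -0.09, beside 0.03 for all 18417 genes. These counts describe 2 arrays and do not show that the members as a list differ from other genes.

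The scale for reading a single difference comes from the other genes. Among measured genes, 95% of differences lay between -0.37 and 0.47, a range that mixes noise of the assay with real differences between the cells. Of the 28 measured members BST2 and ERAP1 lay outside it. Where a gene had several probe sets above the filter, their differences lay apart by a median of 0.05 and, in 95% of 608 pairs, by at most 0.40. In 123 of these pairs the differences were equal within 0.0005, and among the other 485 the median was 0.07. Probe sets of 1 gene can cover different transcripts, and these gaps are no measure of the spread between clones. The TFAP2E probe set itself read 6.81 on the array labelled TFAP2E overexpression and 6.77 on the empty vector array, so these values do not show the introduced gene. The sources used here do not say which part of the transcript it covers. Of 10 markers of colorectal epithelium 9 were measured, 3 higher and 6 lower, with differences from -0.71 to 0.09. The lowest was CDH1 (E-cadherin), at 6.38 against 7.08, the 1 marker of these 9 past 1.5-fold. Of 11 leukocyte markers with a probe set 9 were dim on both arrays, among them PTPRC at 2.74 on each. The 2 measured ones were CD14 and CD68. CD68 read 6.60 against 6.02 (0.57), outside the range of 95% of genes. CD14 read 5.46 against 5.66 (-0.19). It reached the filter on the empty vector array alone, so that a negative difference was a condition of its entry. Of 6 fibroblast markers 4 were dim on both arrays, and the 2 measured ones differed by -0.09 and 0.05. The part of these markers in the members' values was not tested.

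**Figure D1:**
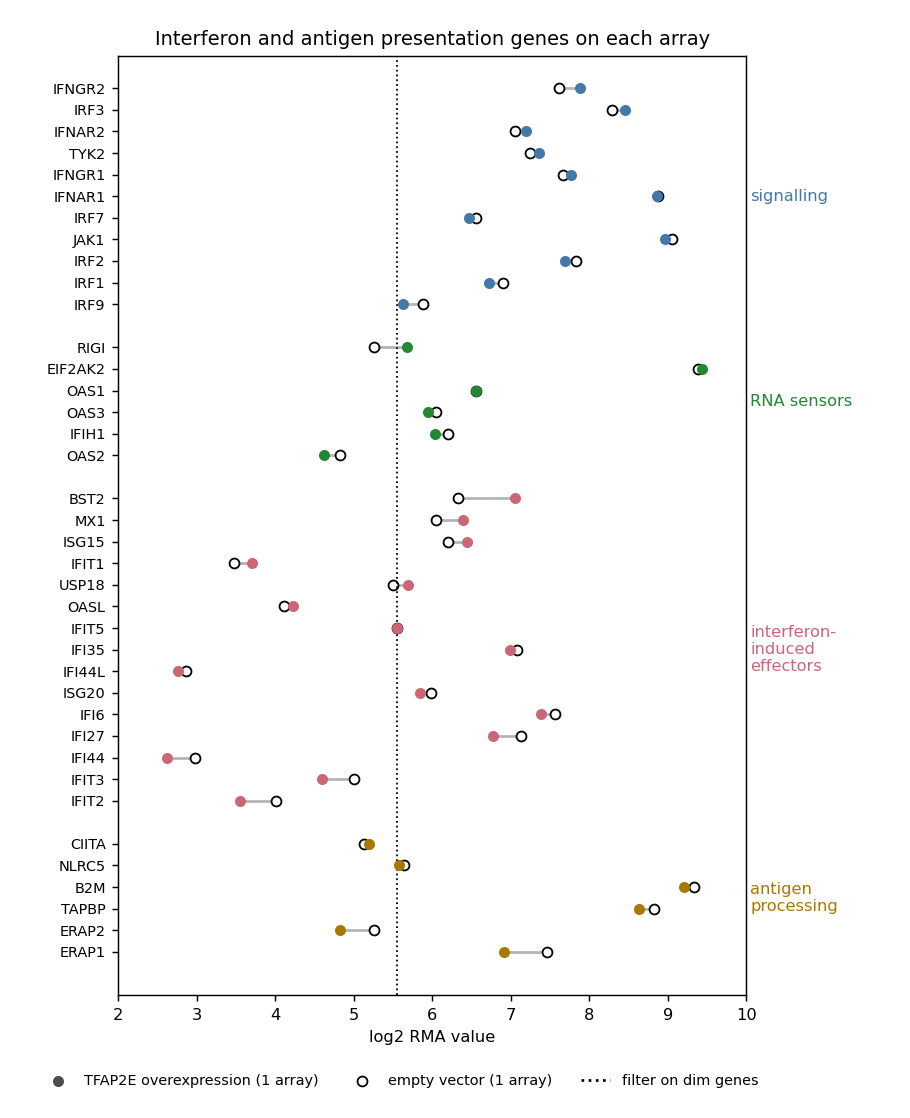
Log2 RMA value of each of the 38 members on the 1 array of each group, grouped by role and ordered within a role by difference. Filled points are the TFAP2E overexpression array, open points the empty vector array, and the dotted line is the filter at 5.55. In most members the points lie close together, the widest gap is that of BST2, and most genes left of the line are interferon-induced effectors.

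The receptors and signalling genes were all measured, 11 of 11 with a probe set. IFNGR2, the signalling chain of the interferon gamma receptor, read 7.88 with TFAP2E against 7.62 with the empty vector, a log2 difference of 0.26. Values are given in this order throughout. IFNGR1, its ligand-binding chain, read 7.77 against 7.66 (0.11). IFNAR2, the chain of the type I receptor that binds interferon tightly, read 7.19 against 7.05 (0.13). IFNAR1, its partner, read 8.86 against 8.88, a difference of -0.03. Thus 3 of the 4 receptor chains were higher and 1 was lower, each inside the range that held 95% of genes. IFNAR2, IFNAR1 and IFNGR2 lie near each other on chromosome 21, so that they share their surroundings in the genome.

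The Janus kinases stood on either side of 0. JAK1, which serves both receptor types, read 8.96 against 9.05, a difference of -0.09. TYK2, which works at the type I receptor, read 7.36 against 7.25 (0.11). Of the 5 interferon regulatory factors 4 were lower. IRF9, the DNA-binding part of the complex that type I interferon activates, had the lowest difference of the signalling genes, reading 5.63 against 5.88 (-0.25). IRF1, an interferon gamma target that itself activates class I genes, read 6.72 against 6.90 (-0.18), and its relative IRF2, which competes for the same sites, read 7.69 against 7.83 (-0.14). IRF7, the amplifier of type I interferon production, read 6.47 against 6.56 (-0.09). IRF3, which RNA and DNA sensors activate without new synthesis, was the exception, at 8.46 against 8.29 (0.17). The signalling genes together counted 5 higher and 6 lower, with a median of -0.03.

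Among the RNA sensors RIGI had the highest difference. RIGI, which detects RNA ends left by viral polymerases, read 5.68 against 5.26, 0.42 higher on the log2 scale or 1.34-fold. It was measured only through its value on the TFAP2E array, so that a positive difference was a condition of its entry. Its difference lay inside the range that held 95% of measured genes. IFIH1 (MDA5), the sensor of long double-stranded RNA, went the other way, at 6.03 against 6.20 (-0.17).

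EIF2AK2 (PKR), a kinase that halts translation when it binds double-stranded RNA, read 9.44 against 9.39. Its difference of 0.05 became slightly negative without the loess trend. The oligoadenylate synthetases make the messenger that switches on RNase L. OAS1 read 6.56 on both arrays, with no difference at all in the deposited value, as 159 of the 11548 measured genes did. OAS3 read 5.94 against 6.05 (-0.11). OAS2 was dim, at 4.62 against 4.83 (-0.21). These 3 genes are direct neighbours on chromosome 12. The 5 measured sensors had a median of 0.00. It was -0.06 without RIGI, and also -0.06 over all 6 sensors with OAS2.

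The interferon-induced effectors held the widest spread. BST2 (tetherin), which holds budding virus particles at the cell surface, read 7.05 against 6.33. It was 1.65-fold higher, a log2 difference of 0.73, and stood 35th from the top of all 11548 measured genes. The 3 nearest measured genes on each side of BST2 on chromosome 19 differed by between -0.28 and 0.32. MX1, a GTPase that traps viral nucleocapsids, read 6.39 against 6.05 (0.33). ISG15, a ubiquitin-like protein attached to other proteins during the response, read 6.44 against 6.20 (0.25). USP18, the protease that removes ISG15 and also restrains the type I receptor, read 5.69 against 5.50 (0.19). Like RIGI, USP18 reached the filter on the TFAP2E array alone.

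The other four measured effectors were lower. IFI27, a small membrane protein and a widely used marker of type I interferon exposure, read 6.78 against 7.13, a difference of -0.35 that lay just inside the range of 95% of genes. IFI6, a related small membrane protein, read 7.39 against 7.57 (-0.19). ISG20, an RNA exonuclease, read 5.84 against 5.98 (-0.14). IFI35 read 6.99 against 7.08 (-0.09). The 8 measured effectors ranged from -0.35 to 0.73, with 4 higher, 4 lower and a median of 0.05. Without USP18, whose positive difference was a condition of its entry, 3 of 7 were higher and 4 lower, and the median was -0.09. Genes usually induced together by type I interferon thus had differences of either sign in these 2 arrays. All of them but BST2 lay inside the range that held 95% of measured genes, so their signs alone say little.

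**Figure D2:**
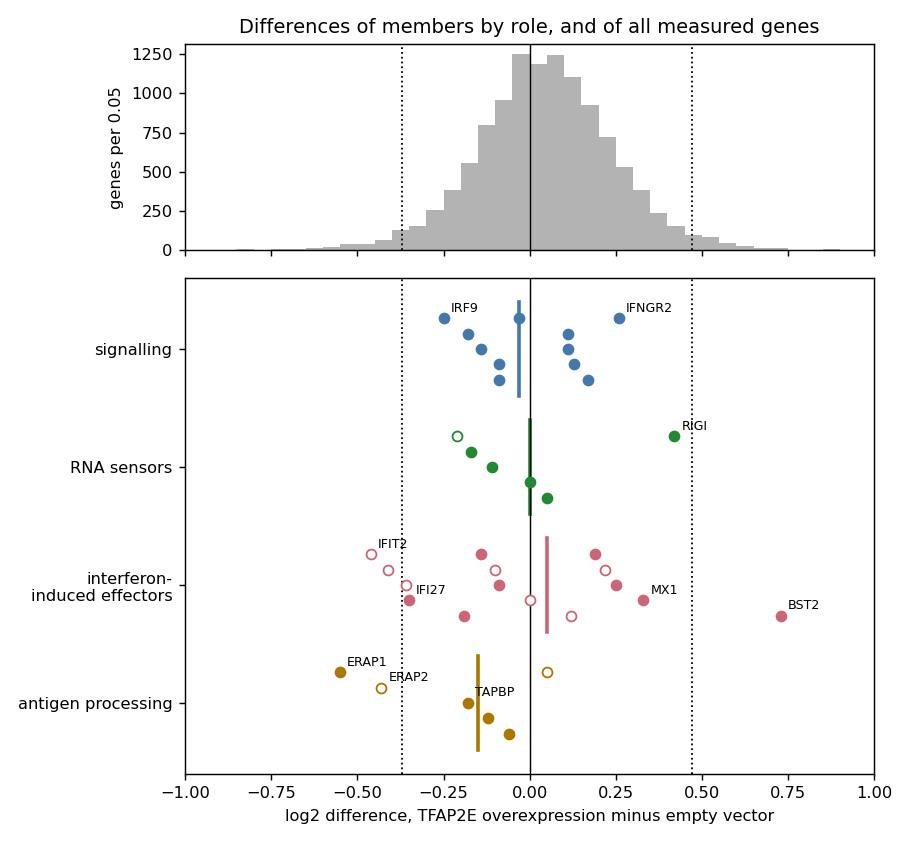
Upper panel: histogram of the log2 differences (TFAP2E overexpression minus empty vector) of the 11548 measured genes, of which 23 beyond ±1 are not drawn. Lower panel: the 38 members by role, filled where measured and open where dim, with the median of the measured ones as a vertical bar and dotted lines at -0.37 and 0.47. BST2 lies right of the dotted range, and ERAP1 is the measured member left of it.

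The other 7 effectors were dim on both arrays. The IFIT genes encode proteins that bind foreign RNA ends and block its translation. IFIT1 read 3.70 against 3.48, IFIT2 3.55 against 4.01 and IFIT3 4.59 against 5.0. IFIT5 read 5.55 on both arrays, just under the filter. IFI44 read 2.62 against 2.98 and its neighbour IFI44L 2.76 against 2.86. OASL, an OAS relative without synthetase activity, read 4.23 against 4.11. The dim members hence include all 4 IFIT genes, which lie together on chromosome 10, and both IFI44 genes on chromosome 1. Their differences ran from -0.46 in IFIT2 to 0.22 in IFIT1, while 95% of the 6869 dim genes lay between -0.43 and 0.40. A difference between dim values may say little about the transcript. With the dim effectors included, 6 of 15 were higher and 8 lower, and the median moved from 0.05 to -0.09.

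Each of the 4 measured antigen processing genes was lower on the TFAP2E array, as were 4558 of all 11548 measured genes. ERAP1, the aminopeptidase that trims peptides in the endoplasmic reticulum to the length that class I molecules hold, read 6.91 against 7.46. It was 1.47-fold lower, a log2 difference of -0.55, and stood 83rd from the bottom of all measured genes. TAPBP (tapasin), which bridges class I molecules to the peptide transporter, read 8.63 against 8.82 (-0.18). Its other probe sets read 7.46 against 7.70 and 8.22 against 8.46, a difference of -0.24 each, and probe sets of 1 gene share the array and may share probes. B2M, the invariant light chain of class I molecules, read 9.21 against 9.33 (-0.12). NLRC5, the transactivator of class I genes, read 5.57 against 5.64, close to the filter (-0.06).

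The other antigen processing members were dim. ERAP2, a second trimming enzyme and the direct neighbour of ERAP1 on chromosome 5, read 4.83 against 5.26 (-0.43). Both enzymes read lower on the TFAP2E array, but ERAP2 was dim, and a difference between dim values may say little about the transcript. The 3 nearest measured genes on each side of ERAP1 differed by between -0.08 and 0.31. These neighbours were picked after their values were seen, and a shared change of both enzymes was not tested. CIITA, the transactivator of class II genes in antigen-presenting cells, read 5.19 against 5.13 (0.05). The median of the 4 measured genes was -0.15, as it was with the dim ones included, and it lay between -0.20 and -0.13 under the alternatives tried. Among the roles, the measured medians were thus -0.15 for antigen processing, -0.03 for signalling, 0.00 for RNA sensors and 0.05 for effectors, beside 0.04 for all measured genes. Over members at or above the filter on both arrays, which leaves out RIGI and USP18, the medians were -0.15, -0.03, -0.06 and -0.09 in the same order, beside 0.04 for the 11074 such genes. With so few genes per role no order of the roles can be drawn from this.

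**Figure D3:**
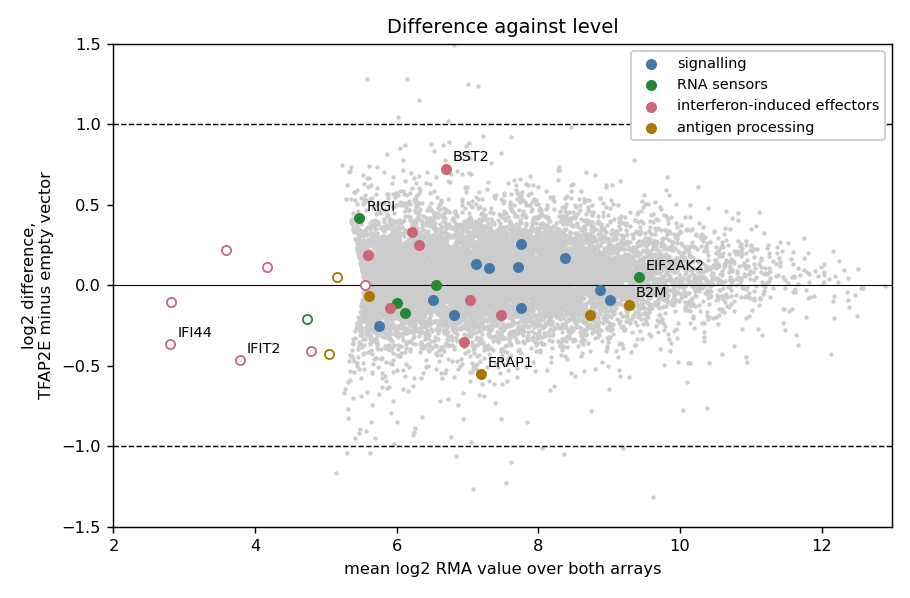
Log2 difference (TFAP2E overexpression minus empty vector) against the mean log2 value of both arrays, with measured genes in grey and members coloured by role, open where dim. Dashed lines mark 2-fold, and 4 genes beyond ±1.5 are not drawn. All members lie between the dashed lines, and BST2 is the farthest from 0.

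A further 111 genes of the pathways were listed by role, of which 97 had a probe set of their own and 57 were measured. None of the 57 reached 1.5-fold, against 1.5% of all measured genes, a share at which a list of this size may well hold none. Of the 57, 31 were higher and 26 lower, and their median was 0.03. All 11548 measured genes counted 6831 higher and 4558 lower, with a median of 0.04. Over all 97 further genes 47 were higher and 44 lower, with a median of 0.00. With the dim genes included, 0 of the 97 passed 1.5-fold on the higher side and 1 on the lower side, a dim effector at -0.88. Of all 18417 genes, 149 did so on the higher side and 128 on the lower. The highest were IRF5, another interferon regulatory factor, at 6.34 against 5.84 (0.50), and PARP9, an interferon-induced ADP-ribosyltransferase family member, at 6.02 against 5.62 (0.39). The lowest were TLR4, the receptor for bacterial lipopolysaccharide, at 7.14 against 7.44 (-0.30), and GBP3, an interferon-induced GTPase, at 5.61 against 5.89 (-0.27). Of the 9 interferon ligands with a probe set 8 were dim on both arrays. The 20 further effectors that were measured counted 13 higher and 7 lower (median 0.09). With the dim ones included, 18 of 38 were higher and 17 lower (median 0.00), so the lean to higher values was not kept. The 17 further antigen processing genes counted 9 higher and 8 lower (median 0.01), whereas the 4 measured members of that role were all lower; this contrast was not tested.

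Most members shared the response element. Promoter windows, from 250 bases before to 50 bases after a start, were found for 30 of the 40 members, in 41 windows. The entries for IRF2, IRF3, IRF7, IFNAR2, IFIT2, OAS2, OASL, USP18, NLRC5 and CIITA are missing. The letters GAAANNGAA occurred on either strand in 19 of the 30 members (63.3%) and in 9.86% of the 27305 genes of the table. Counted by window, this was 23 of 41 against 8.11% of 35116. They were present in 11 of 12 effectors, with IFI35 as the exception, in 5 of 5 antigen processing genes (CD74 among them), in 3 of 5 sensors and in 0 of 8 signalling genes. Most of the effectors, sensors and antigen processing genes are known as interferon targets, so that the element is background for these roles and not a result of the arrays.

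The gamma-activated site letters TTCNNNGAA, which read the same on both strands, occurred in 7 of 30 members (23.3%) and in 9.38% of genes. In BST2, IFI27 and MX1 a match shared bases with the response element. The AP-2 letters GCCNNNGGC, which also read the same on both strands, occurred in 9 of 30 members (30%) and in 26.55% of genes. They were found in windows of ERAP1, ERAP2, CD74, RIGI, EIF2AK2, ISG15, IFI27, IFNAR1 and JAK1. The BST2 window held none. With 4 bases in place of 3 between the same flanking letters, 8 of 30 members matched, against 24.67% of genes. By role the matches then moved from 3 of 5 to 0 of 5 antigen processing genes and from 2 of 8 to 4 of 8 signalling genes, so that which members match depends on the spacing searched.

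Differences on both sides of 0 occurred with and without the response element. The 12 measured members with the response element letters had 4 higher and 8 lower values, from -0.55 in ERAP1 to 0.73 in BST2, and a median of -0.13. The 10 measured members with a window but without these letters had 4 higher, 5 lower and 1 equal, from -0.25 to 0.42, and a median of -0.01. The 0.42 is that of RIGI, whose positive difference was a condition of its entry. With the AP-2 letters 3 of 7 measured members were higher, RIGI again among them, and 4 lower (median -0.03). Without them 5 of 15 were higher and 9 lower (median -0.11). BST2, ISG15 and B2M all carry overlapping repeats of the element at a similar distance before the start, as printed above, and their differences were 0.73, 0.25 and -0.12. Those of ISG15 and B2M lay inside the range of 95% of measured genes, and no contrast among these genes was tested.

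**Figure D4:**
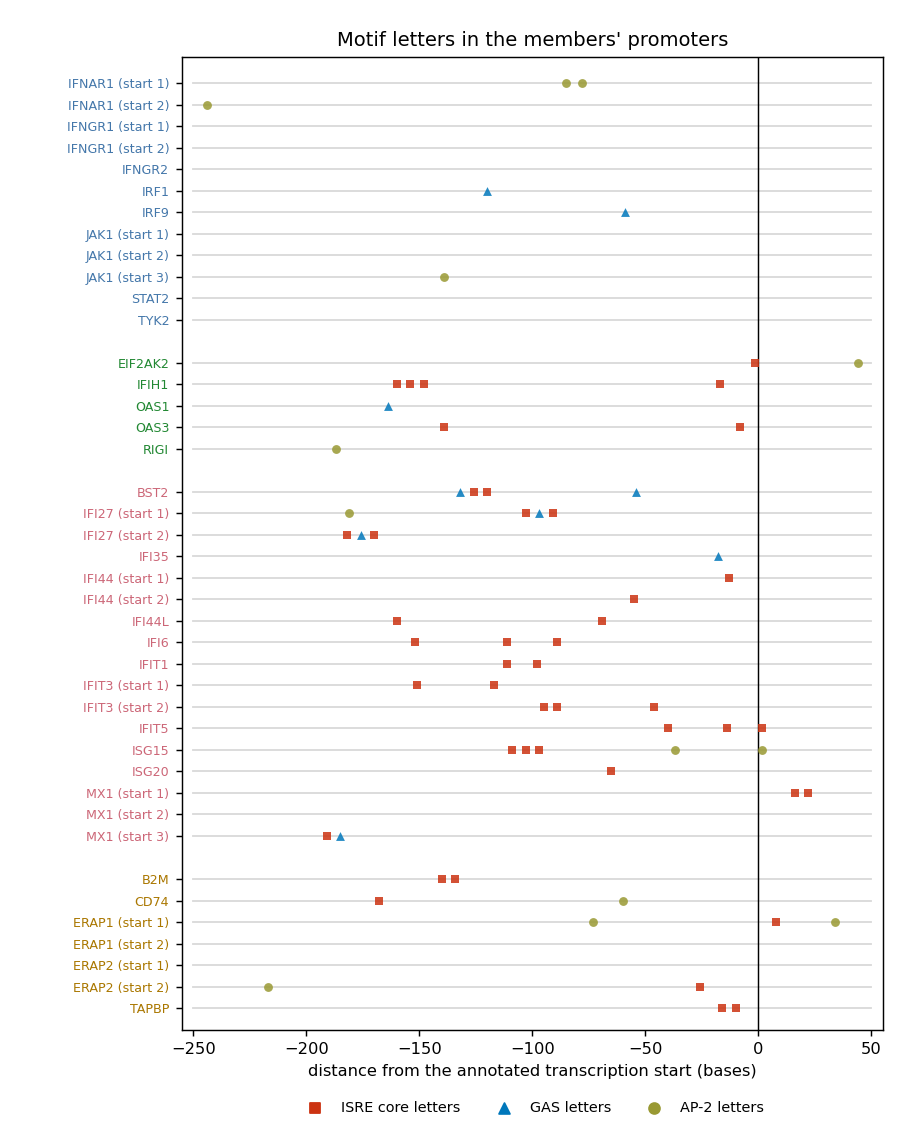
Positions of the letters of 3 motifs in the 41 promoter windows of 30 members, as the distance in bases from the annotated start (0), with names coloured by role as in the other plots. Squares mark the interferon-stimulated response element core, triangles the gamma-activated site and circles the AP-2 letters. Squares occur in effectors, sensors and antigen processing genes and in 0 of the 8 signalling genes.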

How the data were processed

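Per the submitters' processing notes the authors used RMA, and the deposited table holds 1 log2 value per probe set and array. This method corrects background, gives the arrays 1 distribution of intensities and summarises probes, so a change of all transcripts together would not appear. Version and genome build: not given in the sources used here.

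Of 33297 probe sets, 19460 had 1 gene symbol in the platform annotation, 1754 had several and 12083 had none. Symbols were updated through Entrez identifiers (RefSeq, GRCh38.p14), and DDX58 was matched as a synonym. The probe set with the highest mean stood for a gene, without further scaling. A gene was measured when the higher value was at or above 5.55, and 6869 genes were dim. This is a median and no detection limit. Probe sets differ in affinity, so levels are not compared between genes. The number of arrays limits the precision.

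The named genes are the 40 members, TFAP2E, the 2 highest and 2 lowest measured genes of the further list, and markers. CDH1, PTPRC, CD68 and CD14 were picked after their values were seen, as were the genomic neighbours. The members, lists and tests were chosen with earlier results of these data known. Alternatives covered scaling, filter, probe set rule, floor, fold threshold and motif letters. Scripts ran in Python 3.11.15 with pandas 2.3.3 and statsmodels 0.14.6 and were tested on simulated data.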

Additional observations from a re-analysis of the deposited data

How the results depend on the processing

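Of 190 differences of single members under other scalings, the mean of all probe sets and a floor, 189 moved by less than 0.219, the standard deviation over all measured genes. The exception was IFI44, whose values both lay at the floor. The sign changed in EIF2AK2 alone, without the loess trend. BST2 lay between 0.70 and 0.75 and ERAP1 between -0.58 and -0.53. Scaling set the median of all genes between 0.01 and 0.07.

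Of 57 values of the lists under the alternatives, 55 were counted as close to those reported. This count does not show that signs held, because the medians are small and some changed sign within it. The effector median went from 0.05 to -0.09 without a filter. The signalling median went from -0.03 to 0.04 with a filter at the 75th percentile. The medians of all measured members (-0.10 to -0.04) and of antigen processing (-0.20 to -0.13) stayed negative. The number of members past the rule became 1 at 1.5-fold, by construction. The median of the effectors became -0.185 with a filter at the 75th percentile, which leaves 1 of them. With a filter on both arrays, added after the data were seen, the medians of sensors and effectors were -0.06 and -0.09. The share of members with the response element became 60.0% with 1 letter more, and that with AP-2 letters 26.67% with the wider spacing. No paired analysis was possible because neither group has a second array.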

Other observations

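Some probe sets match several genes and were left out of the comparisons above. A probe set annotated to CD74, the class II invariant chain, together with ROS1 read 6.60 with TFAP2E against 6.76 with the empty vector, a log2 difference of -0.16. A probe set shared by USP18 and USP41P read 5.34 against 5.07, a difference of 0.27, beside 0.19 for the probe set of USP18 alone. The MHC class I heavy chains, which pair with B2M, were covered by 6 probe sets annotated to several of these genes at the same time. These 6 stand for 2 combinations of genes and are not independent. All 6 read lower on the TFAP2E array, by -0.12 to -0.09 on the log2 scale, as did 4558 of the 11548 measured genes by any amount. B2M differed by -0.12. These values lie inside the range that held 95% of measured genes, and they have no replicate.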
